A study of Cunninghamia lanceolata with 18 samples.

Results

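The subject here is a set of 122 genes of Chinese fir (Cunninghamia lanceolata) that were counted in every library of clone C1 and in no library of clone C11. The members were chosen from the counts themselves, as genes with 0 counts in all 9 C11 libraries and at least 10 counts in each of the 9 C1 libraries, out of 46723 genes in the table. The difference between the clones is therefore what chose them, and it is described here without a test. Each clone was sampled in 3 tissues, namely apical buds (AB), upper phloem beside the apical bud (UP) and lateral buds (LB), and each tissue of a clone gave 3 RNA-seq libraries, 18 in total. Both clones were untreated trees of a clonal test forest in which C1 has the longer internodes and C11 the shorter ones, and the tissues were taken when lateral buds appeared, on a different day after bud sprouting in each clone. Each clone is 1 genotype, so the clone, its genotype and its day of collection cannot be told apart. A total of 124 genes met both count limits, and 2 of them are not among the members. These are a homolog of UGT85A1, a glucosyltransferase family member that in Arabidopsis attaches glucose to cytokinins (Cula0012956, 30 to 283 counts in the C1 libraries), and a homolog of BAS1, a cytochrome P450 that inactivates brassinosteroids in Arabidopsis (Cula0015277, 11 to 58 counts).

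Clonally propagated trees of one clone carry the same genome, whereas clones of different origin differ by small sequence variants and by the presence or absence of whole genes, a kind of variation that is well known in plants. A count in this kind of table is a sequenced fragment that was aligned to one reference genome and assigned to a gene. A count of 0 records that no fragment was assigned. A gene that is not transcribed, a gene that the genome lacks and a transcript whose sequence no longer aligns to the reference all give this value and cannot be told apart from counts. Genes with no annotation are named here by their identifiers in the table, where Cula marks genes of the reference annotation and NewGene marks other loci that carry no such number. The count table, the paper's text and its supplementary tables, of which the list of differentially expressed genes is held only in part and gives no functions, attached no function to any of the 122 members, so no role is assigned to them and the tissue labels could not be checked against marker genes.

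The libraries held 24766529 to 32005160 counts, with 24766529 to 32005160 in C1 and 26796290 to 30564975 in C11, so the depth of the clones overlapped. Over its 9 libraries C11 was sequenced to 258084288 counts and C1 to 263415932. A count of 0 in C11 allows up to 3 counts over the 9 libraries, which is 0.0116 CPM, the count scaled to the library total. This limit and the folds drawn from it cover counting error only.

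The rule itself places each member above that limit in C1, so the folds below describe the selected genes and test nothing. The pooled C1 level of a member was at least 46.0-fold above the limit for the lowest member, at least 183-fold for the median member and at least 6916-fold for the highest. The lower end belonged to genes with few counts, since the bound rises with the number of counts in C1. Summed over the 9 C1 libraries, the members had 141 to 21176 counts with a median of 560. In their lowest C1 library 43 members had under 20 counts, 36 had at least 50 and 17 had at least 100. All members together took 0.0671% of the C1 counts. No level is compared between genes here, because the counts are not divided by gene length.

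The members with the highest counts were read many times in all C1 tissues and never in C11. Cula0018849 had 2979, 3773 and 1909 counts in the AB libraries of C1, 899 to 1578 in UP and 1713, 3024 and 4320 in LB, against 0 in each C11 library, at least 6916-fold higher. NewGene_10289 had 1932, 2095 and 1746 counts in AB, 1778, 2169 and 2044 in UP and 1509, 1605 and 2018 in LB, at least 5518-fold higher. NewGene_12758 had 1389, 1195 and 1095 counts in AB, 1646, 1996 and 2121 in UP and 1008, 1406 and 1620 in LB, at least 4401-fold higher. In NewGene_10289 the C1 libraries lay close together in all tissues, while those of Cula0018849 were lower in UP than in both buds. Cula0031469 had the next highest smallest count, 441, and reached 2229 counts, at least 3163-fold higher than the C11 limit.

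At the other end, 11 members had a smallest C1 count of exactly 10. Cula0027035 was among the lowest of these, with 10, 17 and 15 counts in AB, 17, 19 and 15 in UP and 13, 18 and 28 in LB. Cula0011450, NewGene_17159 and NewGene_119 had 153, 158 and 168 counts over the 9 C1 libraries. A further 9 genes with no C11 counts had a smallest C1 count of 9 and fell just outside, such as NewGene_14750 with 9 to 79 counts and 379 in all, and NewGene_341 with 9 to 30 counts and 128 in all. Genes just inside and just outside the limit of 10 thus had similar counts in C1, and the number of members followed the limit. It was 167 with at least 5 counts in each C1 library, 79 with at least 20 and 36 with at least 50.

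**Figure D1:**
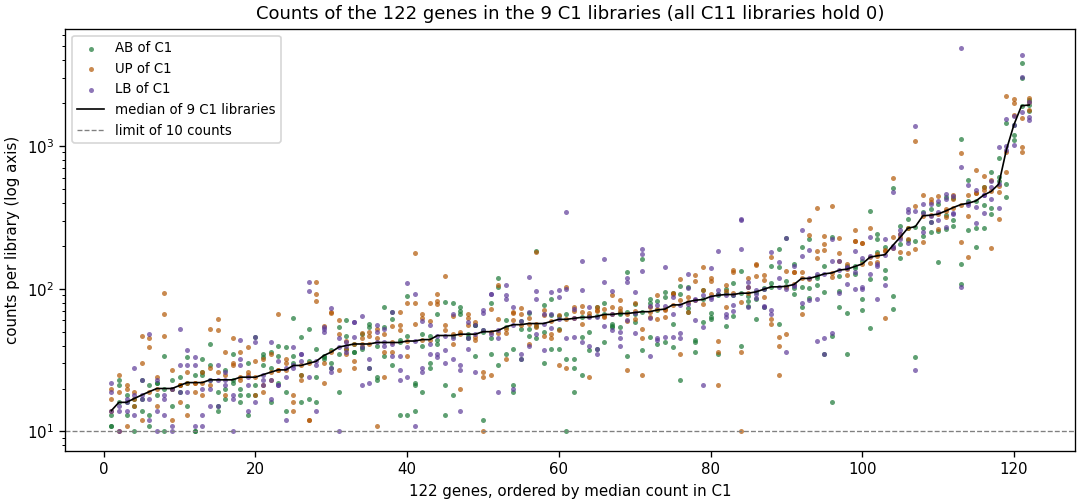
Counts per library (log axis) of the 122 genes in the 9 C1 libraries, ordered by the median count, with points coloured by tissue, a black line for the median and a dashed line at the limit of 10 counts. Of the 122 genes, 43 fall under 20 counts in their lowest library and 17 stay at or above 100, and all C11 libraries held 0.

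The limit on the C11 side separated the genes more sharply than the limit on the C1 side. Of the 20167 genes with at least 10 counts in each C1 library, 124 had no C11 count, 4 had 1 count, 17 had 2 to 3, 29 had 4 to 9, 70 had 10 to 29, 230 had 30 to 99 and 19693 had 100 or more. The number of genes thus fell from 124 at no count to 4 at a single count. Allowing 3 counts over the 9 C11 libraries would raise the members from 122 to 143.

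**Figure D2:**
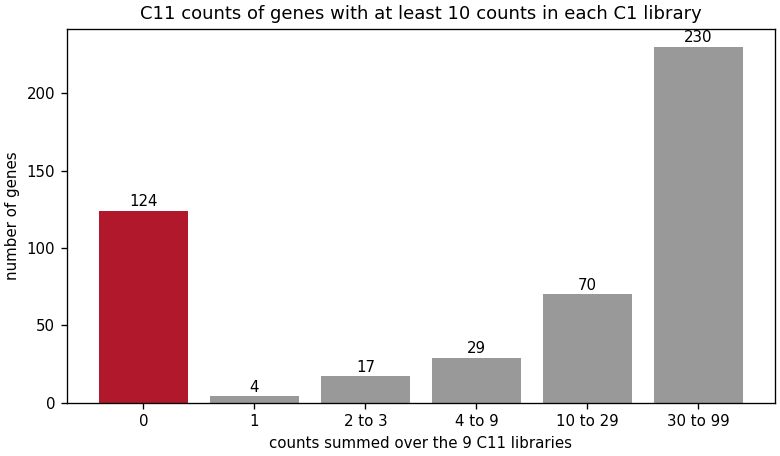
Number of genes by their counts summed over the 9 C11 libraries, among the 20167 genes with at least 10 counts in each C1 library; the 19693 genes with 100 or more C11 counts are not drawn, and the classes widen to the right. The bar at 0 holds 124 genes (122 members and 2 genes left out), and the bar at 1 count holds 4.

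The 4 genes with a single C11 count resembled the members in C1. NewGene_17686 had 210 to 536 counts in the C1 libraries and 1 count in LB replicate 2 of C11. Cula0029544 had 73 to 245 counts in C1 and 1 count in AB replicate 3 of C11, NewGene_16654 had 48 to 81 and 1 count in LB replicate 3, and NewGene_5415 had 18 to 128 and 1 count in UP replicate 2. In all, 38 genes had counts in exactly 1 of the 9 C11 libraries. For 10 of them this library was UP replicate 3, for 7 LB replicate 2, for 6 UP replicate 1, for 4 AB replicate 3, for 3 each AB replicate 2 and LB replicate 3, for 2 each UP replicate 2 and LB replicate 1, and for 1 AB replicate 1. The single libraries held 1 to 30 counts of such a gene, with the highest in UP replicate 3 for Cula0011753, which had 2243 counts over the C1 libraries. Without UP replicate 3 of C11 there would be 132 members, the most with any library of either clone left out.

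The members were mostly NewGene loci. Of the 122 members, 76 (62.3%) carried NewGene identifiers and 46 carried Cula identifiers. Among all 20167 genes with at least 10 counts in each C1 library, 2422 were NewGene loci, and 17745 were Cula genes. Read the other way, 3.14% of these NewGene loci and 0.259% of these Cula genes were members. NewGene loci had fewer counts, so the shares were set side by side in classes of C1 counts. Between 90 and 299 counts over the C1 libraries, 16 of 317 NewGene loci and 9 of 482 Cula genes were members. Between 300 and 999 counts they were 46 of 928 and 17 of 2324, between 1000 and 2999 counts 9 of 664 and 11 of 3344, and from 3000 counts on 5 of 513 and 9 of 11595. The NewGene share was the higher one in all 4 classes, and both shares fell towards the highest counts. The class from 3000 counts on has no upper limit, so depth need not be alike within it. The same rule with the clones exchanged gave 137 genes that were silent in C1 and expressed in C11, of which 75 (54.7%) were NewGene loci. These shares are descriptions, and how the NewGene loci were defined is not given in the sources used here.

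**Figure D3:**
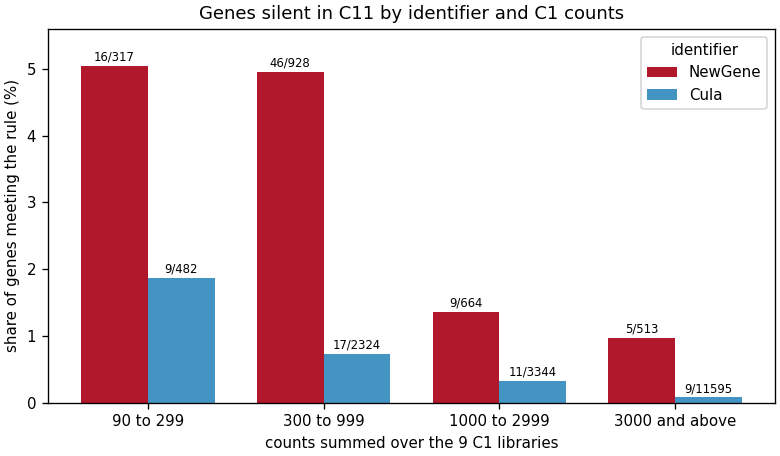
Share of genes that met the rule (%), by the counts summed over the 9 C1 libraries, for NewGene and Cula identifiers among genes with at least 10 counts in each C1 library; the labels give members over genes. The NewGene bar is the taller one in every class, from 16 of 317 against 9 of 482 down to 5 of 513 against 9 of 11595.

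The members were also placed by their numbers. No 2 Cula members had numbers that follow each other directly, and 3 pairs of NewGene members did, namely NewGene_1226 and NewGene_1227, NewGene_11027 and NewGene_11028, and NewGene_17516 and NewGene_17517, which are named after their values were seen. NewGene_1227 had 250 to 424 counts in the C1 libraries and NewGene_1226 had 92 to 148. Of 171 neighbours in number that are no members, 77 had at least 10 counts in each C1 library, and 65 of these had counts in all 9 C11 libraries. A further 25 of the 171 had no count in any of the 18 libraries. Among all 20167 genes with at least 10 counts in each C1 library, 19146 had counts in all 9 C11 libraries. How many such pairs as many other genes would hold was not computed, so the pairs cannot be called few or many. Whether numbers follow the position in the genome was not tested, and loci of a pair could belong to 1 transcript.

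None of the members was in the pink module that the study drew from these libraries. Of the genes of the pink module, a group with correlated expression, 741 had at least 10 counts in each C1 library and 0 were members, and of the 20 genes of highest degree in its network 15 had such counts and 0 were members. The same held for the genes that the paper names by identifier in its text, apart from the 2 genes left out above. Over all 20167 genes at this level, 122 were members. The study's list of genes that differ between the clones is held only in part, and that part holds 31 of the members. The rest of the list could not be searched, and the share of other genes in the part held was not computed.

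The tissues of C1 were then compared, since the rule did not use any contrast between them beyond asking for 10 counts in each library. The question is whether genes counted in C1 alone differed between its buds and its phloem. All 122 members were tested in a fit of the 9 C1 libraries with edgeR's quasi-likelihood test over 24454 genes, and a call needed a false discovery rate under 0.05 (Benjamini-Hochberg) together with a difference of 2-fold or more. The p-values rest on a spread estimated for each gene from all 9 C1 libraries, 3 per tissue. The AB libraries thus also enter the comparison of UP with LB. The labels do not say which libraries came from the same tree. In most members the tissue means lay within 2-fold of each other. The ratio of the highest to the lowest tissue mean, in CPM after TMM normalization, had a median of 1.54 and was under 2 in 94 members, between 2 and 4 in 22 and over 4 in 6. Across all genes with at least 10 counts in each C1 library the median ratio was 1.33 and 82.9% were under 2, against 77.0% of the members. Members had fewer counts, and among genes with up to 1000 counts over the C1 libraries the medians were 1.55 for 88 members and 1.50 for all 4052 genes. The highest mean was in UP for 50 members, in LB for 40 and in AB for 32, and this split was not computed for other genes.

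Between UP and LB, edgeR called 4 members, 1 higher and 3 lower in UP, where 5.19% of all genes tested were called, 2.27% higher and 2.92% lower. Among all genes with at least 10 counts in each C1 library 4.64% were called. The share of members called, 3.28%, was not above this background. The members had fewer counts, with a median of 560 over the C1 libraries against 4700 for genes with at least 10 in each. The share called at like depth was not computed. At an unadjusted p under 0.05 there were 22 members (24.5% of all genes), and DESeq2 called 13 members (10.6% of all genes). The median log2 fold change of the members was 0.14, against -0.01 for all genes tested. The number of calls depended on single libraries, those of AB included, among all genes as among the members. None of the 4 was called without LB replicate 2, LB replicate 3, UP replicate 2 or UP replicate 3, where 15, 286, 20 and 95 of all genes were called in place of 1268. Without LB replicate 1, 1 of the 4 was called (3.35% of all genes), and without UP replicate 1, 0 of the 4 (2.23%). With AB replicate 1, 2 or 3 left out, 3, 3 and 4 of them were called, among 3, 6 and 9 members in all (5.83%, 6.15% and 6.39% of all genes). In a fit of all 18 libraries 0 members were called (14 at an unadjusted p under 0.05), with 0.144% of all genes called.

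Of the called genes, 3 were lower in the phloem than in the lateral bud. Cula0018849 had 51.4, 28.0 and 34.3 CPM in the UP libraries and 65.5, 98.3 and 130 CPM in LB. All UP libraries lay below all LB libraries, and the log2 fold change was -1.37 with a standard error of 0.32 (edgeR, adjusted p = 0.0431). NewGene_6066 had 1.17, 1.34 and 0.735 CPM in UP and 3.52, 3.19 and 5.51 CPM in LB, and UP minus LB was -1.91 on the log2 scale with a standard error of 0.42 (edgeR, adjusted p = 0.0386). NewGene_6646 had 1.50, 1.25 and 0.875 CPM in UP and 3.94, 4.97 and 3.58 CPM in LB, a difference of -1.78 on the log2 scale with a standard error of 0.42 (edgeR, adjusted p = 0.0453). In these genes too UP and LB did not overlap. The same was true of 29 members in all, called or not. The share over all genes was not computed, so the lack of overlap is a description and not evidence for the calls. The AB libraries of Cula0018849 had 76.1 to 126 CPM and those of NewGene_6646 had 2.27 to 7.07 CPM, all above UP, with adjusted p = 0.0707 and 0.0699 for UP against AB (edgeR).

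The gene called in the other direction was NewGene_2528. It had 2.54, 2.55 and 3.22 CPM in UP and 1.26, 1.14 and 1.41 CPM in LB, with no overlap, and its log2 fold change was 1.12 with a standard error of 0.27 (edgeR, adjusted p = 0.0463). The AB libraries lay between the other tissues, at 1.63 to 2.25 CPM. NewGene_5666 had a larger difference that did not pass, with 92, 111 and 82 counts in UP and 31, 14 and 29 in LB and 1.89 as the log2 fold change (edgeR, adjusted p = 0.0510), and it is named after its value was seen.

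**Figure D4:**
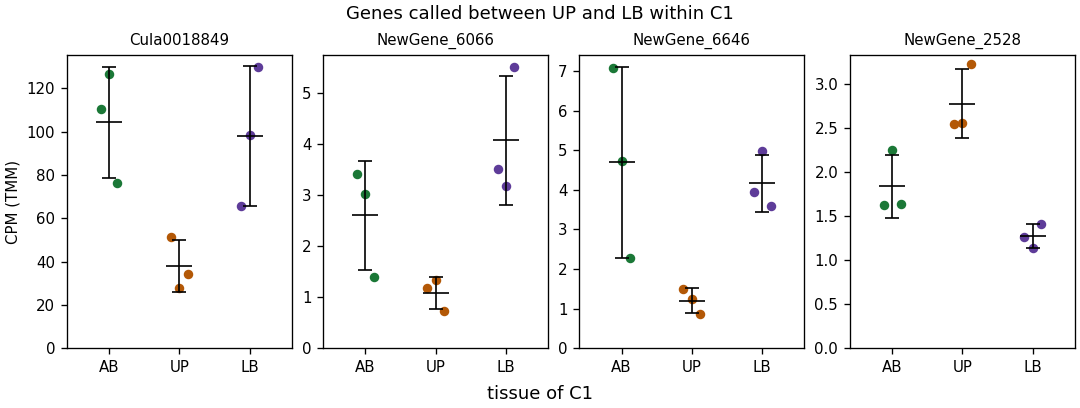
CPM (TMM) of the 4 members called between UP and LB, in the 3 C1 libraries of each tissue, with points for libraries and black marks for the mean and SD. In Cula0018849, NewGene_6066 and NewGene_6646 the UP points lie below all LB points, and in NewGene_2528 they lie above them.

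Between UP and AB, edgeR called 0 members (17 at an unadjusted p under 0.05, and 7 called by DESeq2), where edgeR called 1.04% of all genes (0.853% of those with at least 10 counts in each C1 library), 19.1% had an unadjusted p under 0.05 and DESeq2 called 6.51%. Deviations from the tissue means correlated at 0.493, 0.103 and 0.308 between UP and AB libraries of the same number, weakly for replicate 2. A fit with that number as a block called 0 members as well (19 at an unadjusted p under 0.05), with 0.319% of all genes called. Without AB replicate 3 of C1, 2 members were called, Cula0018849 and NewGene_6646, where 923 of all genes (3.67%) were called. Between LB and AB, edgeR called 0 members and 0 of all genes, and 9 members had an unadjusted p under 0.05 (6.78% of all genes). DESeq2 also called 0 members there, with 0.773% of all genes called. Members whose tissues differed by less than the threshold are not shown to be equal between tissues.

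The largest ratios between tissues went with a wide spread of the libraries. NewGene_126 had 132, 93 and 40 counts in AB, 81, 36 and 10 in UP and 303, 308 and 190 in LB, and its highest tissue mean was 6.64 times its lowest (UP against LB, edgeR, adjusted p = 0.0552). Cula0019388 had 14, 22 and 21 counts in AB, 80, 179 and 57 in UP and 11, 92 and 43 in LB, a ratio of 4.86 (UP against AB, edgeR, adjusted p = 0.139). NewGene_7178 had 67, 10 and 32 counts in AB, 102, 61 and 28 in UP and 347, 99 and 45 in LB, a ratio of 4.36. The LB libraries of NewGene_7178 overlapped both other tissues, and LB replicate 1 alone was high. The smallest ratios were those of NewGene_13229 at 1.05, NewGene_1226 at 1.07 and Cula0005296 at 1.07. NewGene_13229 had 347, 235 and 264 counts in AB, 456, 213 and 324 in UP and 340, 249 and 392 in LB, and its libraries varied more within a tissue than the tissue means did.

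Libraries of C1 differed widely for some members. The ratio of the highest to the lowest of the 9 C1 libraries had a median of 2.98, was under 2 in 20 members and over 5 in 29. The median biological coefficient of variation between replicates was 0.36 for the members, from 0.15 in NewGene_10289 to 1.02 in Cula0030339, and 0.26 for all genes with at least 10 counts in each C1 library, which had more counts. At up to 1000 counts over the C1 libraries the median was 0.36 both for 88 members and for 4052 such genes. The genes of widest spread, named after their values were seen, were NewGene_5494 and Cula0030339. NewGene_5494 had 272, 33 and 215 counts in AB, 1081, 377 and 190 in UP and 1380, 348 and 27 in LB, a ratio of 65.0 between libraries. Cula0030339 had 150, 107 and 1123 counts in AB, 388, 211 and 890 in UP and 712, 4831 and 102 in LB, a ratio of 51.2. Its count in LB replicate 2 also set the sum over the members, which was 778 CPM in that library and 578 to 723 CPM in the others, or 621 CPM and 571 to 692 CPM without this gene.

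Some members had similar patterns across the C1 libraries. Of 7381 pairs of members, 16 had a Pearson correlation over 0.9 of log2(CPM + 1) across the 9 C1 libraries, and the median over all pairs was 0.02. These pairs joined 20 members into 6 groups. A gene entered a group through any such pair, so other pairs within a group could correlate below 0.9. The points are 9 libraries that share tissues and possibly trees, and the correlations are given as a description. Differences between tissues were not removed and enter these correlations, and such pairs were not counted among other genes.

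The largest group held Cula0002907, Cula0008725, Cula0013383, Cula0031469, Cula0033657 and NewGene_4355, with correlations of 0.760 to 0.948 between them. Cula0008725 had 47, 16 and 231 counts in AB, 129, 120 and 381 in UP and 156, 222 and 49 in LB. Cula0033657 had 89, 72 and 508 counts in AB, 192, 231 and 592 in UP and 194, 473 and 200 in LB. Both were highest in replicate 3 of AB and of UP and in replicate 2 of LB. In CPM all 6 genes were lowest in AB replicate 2, and 5 were highest in UP replicate 3 and Cula0002907 in AB replicate 3. Of 20043 other genes with at least 10 counts in each C1 library, 80 (0.399%) had a correlation over 0.9 with the mean pattern of these 6 genes. The 6 genes were picked for their correlations and themselves make this pattern, so their own fit to it was fixed. Members outside the group were not compared with it, and the share is a description only.

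**Figure D5:**
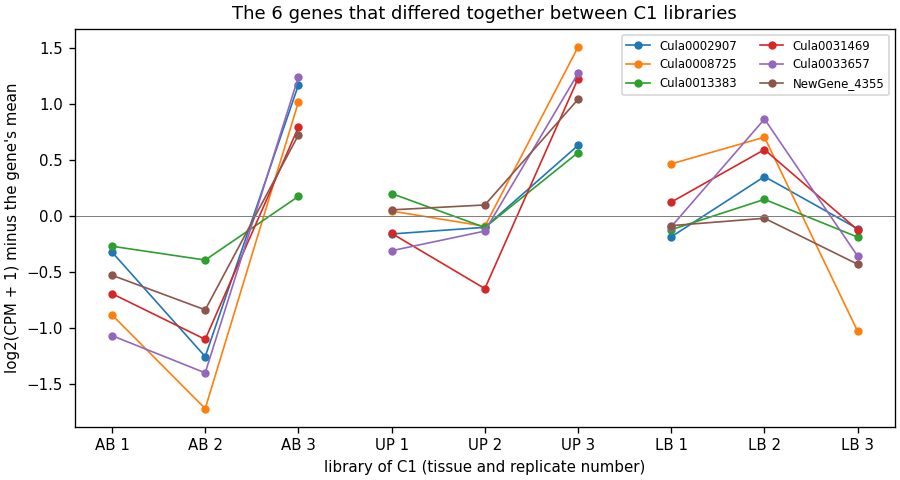
Values of log2(CPM + 1), minus each gene's mean, of the 6 members of the largest correlated group in the 9 C1 libraries, by tissue and replicate number, with lines joining the libraries of a tissue. All 6 genes are lowest in AB replicate 2, and 5 are highest in UP replicate 3.

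Another group was formed by Cula0000790, Cula0004615 and Cula0030797, with correlations of 0.764 to 0.916. Cula0004615 had 580, 412 and 258 counts in AB, 456, 321 and 168 in UP and 386, 397 and 534 in LB. All 3 genes were lowest in UP replicate 3, in which 5 of the 6 genes above were highest, and highest in AB replicate 1. The group of Cula0031874, NewGene_126 and NewGene_6066 also had its lowest values in UP replicate 3, and each had its highest value in a library of LB. NewGene_15164, NewGene_16214, NewGene_17516 and NewGene_3662 formed a group with correlations of 0.816 to 0.957, of which NewGene_3662 ranged from 35 to 234 counts. The pairs of Cula0002647 with NewGene_6659 and of NewGene_3302 with NewGene_5666 correlated at 0.927 and 0.925. Both genes of the last pair were highest in UP replicate 2 and lowest in LB replicate 2.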

How the data were processed

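The values are raw counts per gene as the authors deposited them, made from paired-end reads that Hisat2 had placed on a Chinese fir genome. How reads were counted, whether strand was used and what became of reads with several matches is not given in the sources used here, so counts of near-identical genes are uncertain. Members were found by the rule on the counts, and Cula0012956 and Cula0015277 were dropped. The members, lists and thresholds were chosen with earlier results of these data known.

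The 9 C1 libraries were fitted by the quasi-likelihood test of edgeR 4.0.16 (R 4.3.3) after filterByExpr and TMM, with the 3 tissues as groups and Benjamini-Hochberg adjustment over 24454 genes. Fold and rate thresholds are the paper's, which used DESeq2. The BCV is the square root of edgeR's dispersion per gene. Folds against C11 use 3 counts over its 9 libraries as the limit. Tables and figures used Python 3.11.15, pandas 2.3.3 and matplotlib 3.10.9. The fits were tested on simulated data first.

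Libraries of C1 with the same replicate number had deviations from their tissue means that correlated at 0.493, 0.103 and 0.308 between UP and AB, all over 0.1, so the block is given there. What the replicate numbers stand for is not given in the sources used here. Genes named were members the paper names (0), the 4 strongest calls per tissue contrast and direction, the 4 members with the highest and lowest smallest count (ties by the smaller sum), the 3 with the largest and smallest tissue ratio, directly consecutive Cula numbers (0) and genes just outside the rule. Others are said to be named afterwards or stand in correlated groups, which were also formed after the values were seen. Alternatives were DESeq2 1.42.0, RLE factors, other filters, all 18 libraries, the replicate block, other count limits and each library left out.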

Additional observations from a re-analysis of the deposited data

How the results depend on the processing

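The number of members was 122, and was 79 and 36 with at least 20 and 50 counts in each C1 library and 60 with a CPM of at least 1 in each. Leaving out any 1 library gave 122 to 132. For UP against LB, 4 members were called, and the number was 13 with DESeq2 and 2 without a filter (3.59% of all genes). In a fit of all 18 libraries it was 0 (14 at an unadjusted p under 0.05). With each C1 library left out it was between 0 and 9, where 15 to 1607 of all genes were called. It was 3 with the replicate number as a block, of which NewGene_6646 was among the 4 (edgeR, adjusted p = 0.0709 for Cula0018849, 0.0536 for NewGene_6066 and 0.0664 for NewGene_2528), but same-numbered UP and LB libraries did not all deviate together, and 4 of 9 libraries correlated best with their own number in both other tissues. For UP against AB, 0 members were called, 7 with DESeq2 (6.51% of all genes) and 0 with the replicate block (0.319%). When any 1 library was dropped, 0 to 2 members were called, where 0 to 923 of all genes were called. For LB against AB the number was 0 in every fit run, the replicate block included, with 9 members at an unadjusted p under 0.05. Over all genes, the number of calls for UP against LB was 1268, and 2600 with DESeq2, 1373 with the block and 39 with all 18 libraries. The 4 named genes kept their direction under all alternatives. Their log2 fold changes with a library left out were -1.63 to -1.11 for Cula0018849, -2.06 to -1.62 for NewGene_6066, -1.95 to -1.60 for NewGene_6646 and 1.00 to 1.21 for NewGene_2528. The median ratio of the highest to the lowest tissue mean of 1.54 was 1.40 with 0.5 CPM added and 1.52 to 1.66 with a library left out. The causes of these differences were not tested. For the member with the fewest counts, 141 over the C1 libraries, the depth allows a fold limit of 46.0.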
